A study of Mus musculus with 10 samples.

Results

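Transcripts of 32 genes of DNA replication and S phase were followed in smooth muscle cells sorted from the aorta of mouse embryos lacking or carrying elastin. The genes were taken by symbol from the deposited table of estimated counts, which lists 28165 genes, and all 32 were found there. There were 5 libraries of Eln-/- cells and 5 of Eln+/+ cells, all from embryonic day 15.5 (E15.5) and all untreated primary cells. Both genotypes came from intercrosses of Eln heterozygotes, and the embryos of both carried Acta2-GFP, a green fluorescent reporter named for the smooth muscle actin gene. Cells were taken by flow cytometry if they were positive for GFP and negative for CD31, an endothelial surface protein, and for DAPI, a dye that enters dead cells. The gate therefore holds any aortic cell in which the Acta2 reporter was on. The labels give neither the Eln allele nor the number of embryos behind a library, so p-values reflect the variation among these libraries, some of which may be technical. A level is given as CPM, counts scaled to a common library size with the TMM factors of edgeR, and a level compared between genes as CPM per kb of exon.

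Before S phase, the MCM helicase, a ring of 6 subunits made by Mcm2 to Mcm7, is loaded onto origins of replication. At the onset of S phase, Cdc45 and the GINS complex join it and the ring begins to unwind DNA. Polymerase alpha with its primase then lays down primers, the PCNA clamp holds the copying polymerases on the template, and flap nucleases trim the lagging strand. Ribonucleotide reductase and thymidylate synthase supply the nucleotides, and newly made DNA is packed with histones and its methylation copied. Many of these genes are switched on together by E2F transcription factors late in G1, and the vessel wall of the fetus grows in part by division of its smooth muscle cells.

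The libraries were uneven, and this touches each result below. Total counts ran from 26951733 to 63866416. At least 1 count was found for 15595 and 15925 genes in Eln-/- replicates 4 and 5 and for 15089 genes in Eln+/+ replicate 1, against 18157 to 22951 genes in the other 7 libraries. These 3 libraries are called the gene-poor libraries here. A ribosomal RNA gene model, CT010467.1, held 5.52% to 5.99% of their counts and 0.225% to 2.96% of the others'. The summed level of 7 erythroid markers was 5157 and 619 CPM in the gene-poor Eln-/- libraries and 18883 CPM in the gene-poor Eln+/+ library, while it lay between 22.3 and 1356 CPM elsewhere. The sum of 6 fibroblast markers was 589, 908 and 1310 CPM in the same order, and between 2445 and 12093 CPM elsewhere. Of these markers, Dpt went another way, with its highest level of the 10 libraries, 630 CPM, in the gene-poor Eln+/+ library. Acta2, the gene behind the sorting reporter, was at 473 CPM or more in all 10 libraries, and 6 leukocyte markers together stayed at or below 12.7 CPM. The sum of 8 smooth muscle markers was 1152 to 3178 CPM in Eln-/- and 846 to 2082 CPM in Eln+/+ cells, and that of 6 endothelial markers 0.565 to 24.0 and 1.26 to 51.1 CPM. For 6 cardiomyocyte markers it was 12.4 to 422 CPM in Eln-/- and 3.15 to 598 CPM in Eln+/+ cells, and for 6 glial and neural markers 11.9 to 48.7 and 16 to 115 CPM. Eln had at most 36 counts in any Eln-/- library and at least 2409 in any Eln+/+ library.

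All 32 genes passed the filter on low counts, but they were not found equally in all libraries. In Eln-/- replicates 1 to 5, 31, 27, 23, 17 and 20 of the 32 genes reached 10 CPM. In Eln+/+ replicates 1 to 5, 12, 29, 28, 27 and 26 of them did. Genes with no count numbered 0, 0, 0, 2 and 1 in the Eln-/- libraries and 4, 0, 1, 0 and 1 in the Eln+/+ libraries. Eln+/+ replicate 1 thus held the fewest of these transcripts, and Eln-/- replicate 4 the next fewest. Under 1 CPM were 11 of the 32 genes in Eln+/+ replicate 1, against 36.6% of all genes tested. In Eln-/- replicate 4 it was 8 of the 32, against 34.3% of all genes tested. The median of the 32 genes was 57.9, 67.8, 52.2, 11.2 and 18.8 CPM in the Eln-/- libraries and 3.77, 50.2, 58.7, 55.4 and 34.4 CPM in the Eln+/+ libraries. Over all genes tested the median was 13.7, 10.2, 8.05, 4.61 and 4.98 CPM in the Eln-/- libraries. In the Eln+/+ libraries it was 4.03, 12.5, 9.07, 10.1 and 8.23 CPM, so the gene-poor libraries were lowest over all genes too. In these bulk samples, fewer cells in S phase, less replication RNA per cell and the general state of a library cannot be told apart.

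**Figure D1:**
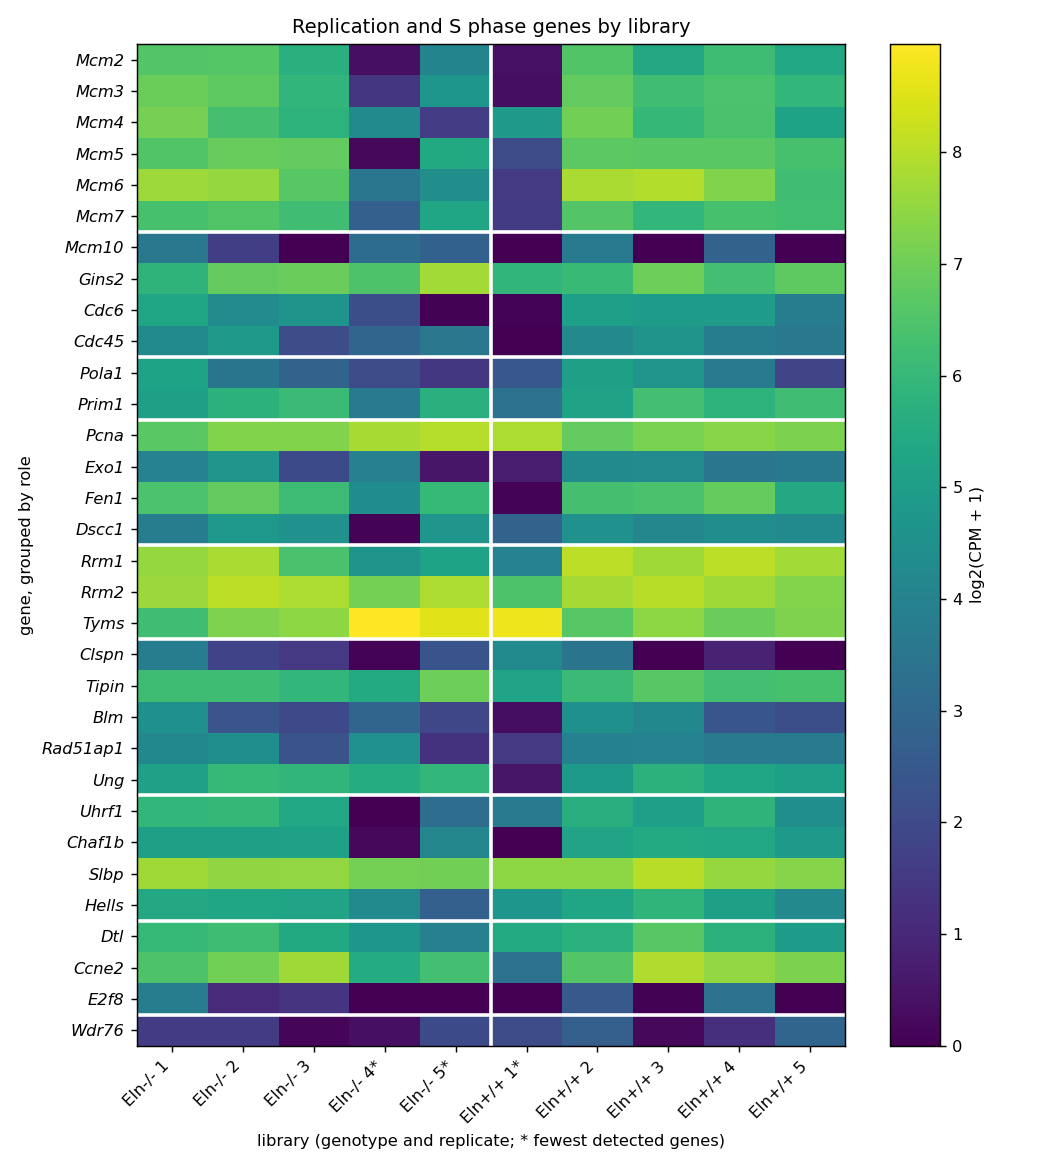
Level of each of the 32 genes as log2(CPM + 1), rows ordered by role and split by white lines, in 5 Eln-/- libraries (left) and 5 Eln+/+ libraries (right); asterisks mark the 3 gene-poor libraries. The MCM rows are darker in Eln-/- replicate 4 and Eln+/+ replicate 1 than in the unmarked libraries, with Mcm4 the brightest of them, while the Tyms and Pcna rows are bright there.

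The 6 MCM subunits lay between 36.2 and 242 CPM in the 7 other libraries of both genotypes and were low in the gene-poor ones. Mcm6 was at 203, 188, 100, 10.5 and 20.8 CPM in Eln-/- replicates 1 to 5, against 1.85, 224, 242, 153 and 74.4 CPM in Eln+/+ replicates 1 to 5. Mcm5 was at 91.6, 119, 113, 0.145 and 42.5 CPM in Eln-/- and at 3.17, 105, 102, 102 and 81.8 CPM in Eln+/+ cells. Mcm3 was at 123, 105, 58.4, 1.67 and 25.1 CPM in Eln-/- and at 0.265, 112, 73.0, 85.8 and 61.1 CPM in Eln+/+ cells. In all 3 genes the lowest Eln-/- library was replicate 4 and the lowest Eln+/+ library replicate 1, and the genotypes overlapped. Mcm2 was lowest in the same libraries, with 95, 97.3, 50.2, 0.290 and 15.5 CPM in Eln-/- and 0.331, 91.5, 41.4, 72.6 and 40.0 CPM in Eln+/+ cells. Mcm7 had 81.0, 91.6, 73.7, 5.81 and 37.9 CPM in Eln-/- and 1.92, 93.2, 60.4, 80.4 and 74.8 CPM in Eln+/+ cells. Mcm4 was the exception among the 6. It had 138, 78.7, 54.2, 18.7 and 2.07 CPM in Eln-/- cells, lowest in replicate 5, and 27.3, 134, 61.5, 83.1 and 36.2 CPM in Eln+/+ cells, where replicates 1 and 5 were the lowest. The lowest of these values came from few counts, which were 2 for Mcm5 and 4 for Mcm2 in replicate 4 of Eln-/-, and 4 for Mcm3 and 5 for Mcm2 in replicate 1 of Eln+/+.

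**Figure D2:**
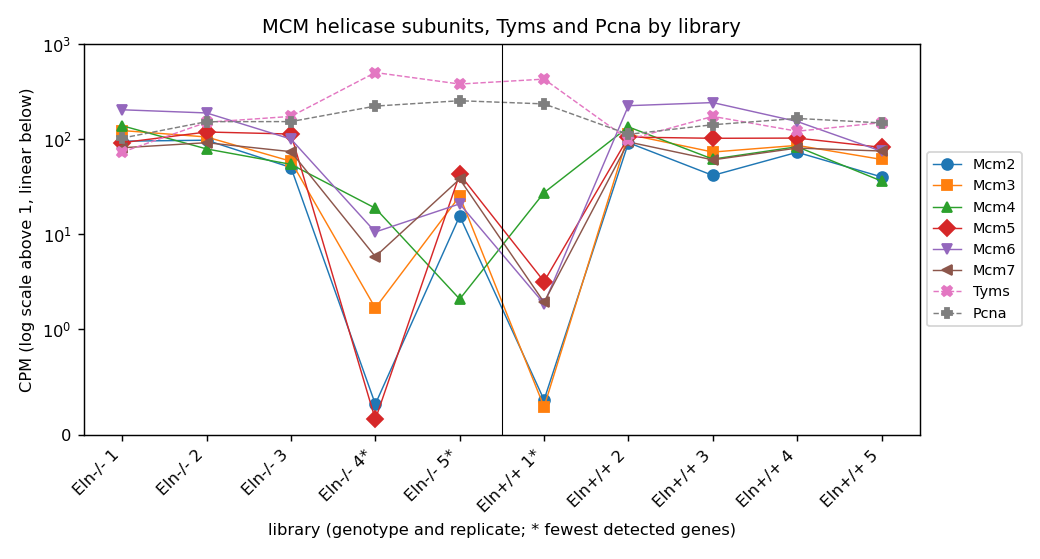
CPM of Mcm2 to Mcm7 (solid lines), Tyms and Pcna (dashed lines) in each Eln-/- library (left) and Eln+/+ library (right), on an axis that is logarithmic above 1 CPM and linear below; lines join the points of a gene for reading only and the order of replicates has no meaning. The MCM subunits lie between 36.2 and 242 CPM in the 7 other libraries and between 0.145 and 42.5 CPM in the 3 gene-poor libraries marked by asterisks.

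Summed over the 6 subunits, the MCM genes had 732, 680, 449, 37.2 and 144 CPM in Eln-/- replicates 1 to 5 and 34.8, 760, 580, 577 and 368 CPM in Eln+/+ replicates 1 to 5. In the 7 other libraries the proportions among subunits overlapped between genotypes. Per kb of exon, Mcm6 made up 24.1 ± 3.08% of the MCM sum in Eln-/- (SD, 3 libraries) and 27.4 ± 8.45% in Eln+/+ cells (SD, 4 libraries), and Mcm5 made up 20.0 ± 6.83% and 19.3 ± 3.70%. Mcm3, Mcm4 and Mcm7 held 17.4, 17.1 and 13.4% in Eln-/- and 16.9, 15.8 and 13.9% in Eln+/+ cells. Mcm2 had the smallest share in both genotypes, 8.00% in Eln-/- and 6.63% in Eln+/+ cells. The size of that share depends on length, since Mcm2 has 6956 bases of exon but a longest transcript of 3494. By longest transcript Mcm2 averaged 20.0 CPM per kb over the 7 libraries, still lowest, beside 23.3 for Mcm4. It then exceeded Mcm4 in Eln-/- replicate 2 (27.8 against 21.9) and Eln+/+ replicate 5 (11.4 against 10.1). The proportions per kb of exon broke down in the gene-poor libraries, where the share of Mcm4 was 56.1 and 1.74% in replicates 4 and 5 of Eln-/- and 81.4% in replicate 1 of Eln+/+.

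Promoters are shown for the 5 MCM subunit genes that have one in the table, because these subunits were low together, and for Tyms, because it was not. The sequences are from RefSeq on GRCm38.p6, the build also called mm10, and run from 250 bases before to 50 bases after a listed start of a gene. The gene spans given below are those of the deposited counts. Their starts differ from the listed starts in some genes, such as Mcm5 and Mcm7. Of the 32 genes, 26 had a promoter there, and Dscc1, Ccne2, Tipin, Gins2, Mcm4 and Exo1 did not. The words TTTCCCGC, TTTCGCGC, TTTGCCGC and TTTGGCGC, which resemble the recognition site of E2F factors, were searched on both strands and are in capitals where they matched. Mcm2 lies on the minus strand of chromosome 6 from 88883474 to 88898780 and its promoter at chr6:88898731-88899030. Mcm3 lies on the minus strand of chromosome 1 from 20802968 to 20820312 and its promoter at chr1:20820263-20820562. Mcm5 lies on the plus strand of chromosome 8 from 75109569 to 75128439, with its promoter at chr8:75109259-75109558. Mcm6 lies on the minus strand of chromosome 1 from 128331590 to 128359664, with its promoter at chr1:128359656-128359955. Mcm7 lies on the minus strand of chromosome 5 from 138164583 to 138172422, and the promoter shown, at chr5:138171834-138172133, is that of the start with E2F words, since the other listed start had none. Tyms lies on the minus strand of chromosome 5 from 30058202 to 30073617, with its promoter at chr5:30073576-30073875. Each is printed 5′ to 3′ on the strand of its gene.
Mcm2: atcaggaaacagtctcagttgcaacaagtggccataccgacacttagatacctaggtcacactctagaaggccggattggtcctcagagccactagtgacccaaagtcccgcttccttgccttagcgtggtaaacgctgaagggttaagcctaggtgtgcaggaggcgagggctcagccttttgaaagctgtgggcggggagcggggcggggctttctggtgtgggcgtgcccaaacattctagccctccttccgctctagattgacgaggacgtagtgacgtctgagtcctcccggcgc
Mcm3: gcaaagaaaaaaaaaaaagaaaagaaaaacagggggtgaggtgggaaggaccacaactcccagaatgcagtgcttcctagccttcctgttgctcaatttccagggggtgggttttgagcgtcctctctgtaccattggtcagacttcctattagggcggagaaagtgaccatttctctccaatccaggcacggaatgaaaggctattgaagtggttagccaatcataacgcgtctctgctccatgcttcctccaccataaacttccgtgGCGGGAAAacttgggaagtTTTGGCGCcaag
Mcm5: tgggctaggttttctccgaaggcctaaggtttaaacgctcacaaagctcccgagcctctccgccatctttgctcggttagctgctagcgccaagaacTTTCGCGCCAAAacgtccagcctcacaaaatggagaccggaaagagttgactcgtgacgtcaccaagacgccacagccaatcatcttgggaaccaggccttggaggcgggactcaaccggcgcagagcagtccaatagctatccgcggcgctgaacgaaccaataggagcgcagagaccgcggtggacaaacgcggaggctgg
Mcm6: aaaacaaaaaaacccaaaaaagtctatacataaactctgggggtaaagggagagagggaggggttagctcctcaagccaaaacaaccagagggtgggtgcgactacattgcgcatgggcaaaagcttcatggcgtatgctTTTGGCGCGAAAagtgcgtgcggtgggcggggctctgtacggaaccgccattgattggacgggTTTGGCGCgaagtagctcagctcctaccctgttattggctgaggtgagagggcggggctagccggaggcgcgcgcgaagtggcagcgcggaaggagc
Mcm7: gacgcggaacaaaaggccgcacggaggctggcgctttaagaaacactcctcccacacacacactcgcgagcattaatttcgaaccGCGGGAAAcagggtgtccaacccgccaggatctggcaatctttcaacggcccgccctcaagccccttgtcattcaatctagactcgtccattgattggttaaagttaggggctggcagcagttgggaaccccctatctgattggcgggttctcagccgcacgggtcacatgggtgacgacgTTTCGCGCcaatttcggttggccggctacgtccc
Tyms: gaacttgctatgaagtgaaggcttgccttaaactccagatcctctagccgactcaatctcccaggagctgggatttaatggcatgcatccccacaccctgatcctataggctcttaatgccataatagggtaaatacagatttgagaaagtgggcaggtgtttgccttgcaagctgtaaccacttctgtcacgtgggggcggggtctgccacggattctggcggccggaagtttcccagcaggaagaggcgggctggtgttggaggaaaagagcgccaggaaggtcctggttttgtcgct

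An E2F word was found in the promoters of 10 of the 26 genes (38.5%), against 487 of 10031 tested genes with a promoter (4.85%) and 704 of all 27025 genes of the RefSeq promoter table (2.61%). The 10 genes were Mcm3, Mcm5, Mcm6, Mcm7, Cdc6, Dtl, Clspn, Uhrf1, Hells and Pola1, so 4 of the 5 MCM subunit genes with a promoter held the word and Mcm2 did not. In Mcm5 and Mcm6 a TTTCGCGC match on one strand and a TTTGGCGC match on the other overlapped in the long run of capitals. The CCAAT box, searched as CCAAT on both strands, was in 19 of the 26 promoters (73.1%) and in 43.7% of those of tested genes, and 1 of the 15 E2F matches, in Mcm7, overlapped one. TATAAA was in 4 of the 26 (15.4%) and in 9.18% of the tested genes. The genes were grouped by function, and a match is a word in a sequence and not evidence of binding. The printed sequences were picked by level, so they cannot show whether the word goes with level, which was not tested. Mcm2 and Fen1, without the word, were low in Eln+/+ replicate 1, as were Mcm3 and Mcm5 with it. Clspn, also with the word, was highest in that library.

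Genes of helicase loading and activation differed widely in level. Per kb of exon, Gins2 was at the 84.3 percentile of the genes tested, Cdc45 at the 55.6, Cdc6 at the 54.8 and Mcm10 at the 17.6. Cdc6, which loads the MCM ring onto origins, had 37.5, 19.0, 24.1, 3.49 and 0.0377 CPM in Eln-/- and 0.0661, 32.4, 29.9, 29.9 and 13.0 CPM in Eln+/+ libraries. The lowest values were 1 count each, in Eln-/- replicate 5 and Eln+/+ replicate 1. Cdc45, a helicase partner, had 18.5, 27.0, 3.35, 6.61 and 10.6 CPM in Eln-/- and 0, 17.9, 24.0, 12.9 and 11.0 CPM in Eln+/+ libraries. Gins2, a subunit of the GINS complex, was more abundant, at 55.6 CPM or more in all 10 libraries, with 55.6, 112, 119, 86.4 and 210 CPM in Eln-/- and 58.9, 66.4, 125, 77.0 and 107 CPM in Eln+/+ libraries. Of its exons, 2758 bases overlap those of Gse1 on the other strand, and reads there cannot be assigned without knowing whether strand was counted. Mcm10, needed to start unwinding, had 11.1, 2.13, 0.0213, 8.06 and 5.88 CPM in Eln-/- and 0, 11.9, 0.0203, 6.19 and 0.0223 CPM in Eln+/+ libraries, and 4 of its values came from 0 or 1 count.

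Polymerase alpha and its primase were uneven with each other. Prim1, the small primase subunit, had 32.9, 53.4, 67.6, 11.8 and 50.6 CPM in Eln-/- and 9.32, 35.0, 78.0, 54.2 and 73.4 CPM in Eln+/+ libraries. Pola1, the catalytic subunit of the polymerase, had 35.8, 10.3, 6.22, 3.27 and 1.77 CPM in Eln-/- and 4.36, 33.0, 24.7, 11.9 and 2.70 CPM in Eln+/+ libraries. The ratio of Pola1 to Prim1 per kb spanned 0.0154 to 0.478 in Eln-/- and 0.0161 to 0.413 in Eln+/+ cells. Eln-/- replicate 1 and Eln+/+ replicate 2, which have the most counts of their genotypes, had the highest Pola1 level and the highest ratio in each genotype.

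Pcna, the sliding clamp, was among the steadiest genes and stood highest in the gene-poor libraries. It had 102, 152, 153, 222 and 253 CPM in Eln-/- and 234, 112, 141, 165 and 148 CPM in Eln+/+ libraries. On library totals in place of TMM, Eln-/- replicate 5 was still the highest Eln-/- library, while Eln-/- replicate 4 and Eln+/+ replicate 1 were the lowest of their genotypes. The mean of Pcna in Eln-/- replicates 4 and 5 was then 0.946 times that in replicates 1 to 3, against 1.75 times with TMM, and in Eln+/+ replicate 1 it was 0.771 times its mean in replicates 2 to 5, against 1.66 times with TMM. Fen1, which cuts the flaps of the lagging strand, had 85.3, 113, 70.4, 19.5 and 64.1 CPM in Eln-/- and 0.0661, 79.4, 83.4, 116 and 41.2 CPM in Eln+/+ libraries. The Eln+/+ replicate 1 value of Fen1 was 1 count, and 1909 bases of its exons overlap the antisense gene Gm10143. Exo1, an exonuclease of mismatch repair and end resection, was between 0.452 and 24.6 CPM in Eln-/- and between 0.595 and 19.1 CPM in Eln+/+ libraries. Dscc1, part of a clamp loader that acts in sister chromatid cohesion, was between 0.0726 and 26.6 CPM in Eln-/- and between 6.28 and 22.3 CPM in Eln+/+ libraries.

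Genes of nucleotide supply went separate ways across the libraries. Rrm2, the small subunit of ribonucleotide reductase whose amount rises in S phase, had 198, 272, 230, 135 and 230 CPM in Eln-/- and 87.4, 216, 255, 207 and 158 CPM in Eln+/+ libraries. Rrm1, the large subunit, had 188, 225, 83.1, 24.0 and 35.7 CPM in Eln-/- and 14.7, 268, 206, 270 and 213 CPM in Eln+/+ libraries. Rrm1 was thus low in the gene-poor libraries, and in Eln-/- replicate 3 as well, where Rrm2 was not. The ratio of Rrm1 to Rrm2 per kb was 0.239, 0.208, 0.0910, 0.0449 and 0.0390 in the Eln-/- libraries and 0.0423, 0.313, 0.203, 0.328 and 0.341 in the Eln+/+ libraries. Tyms, thymidylate synthase, ran against the MCM genes, with 72.8, 150, 173, 501 and 379 CPM in Eln-/- and 427, 98.7, 173, 121 and 149 CPM in Eln+/+ libraries. Its counts differed far less than its CPM, at 5321 to 10053 in Eln-/- and 6458 to 8608 in Eln+/+ libraries. With TMM, Tyms in the gene-poor libraries was 3.33 times its mean in the others in Eln-/- and 3.15 times in Eln+/+ cells, and on library totals 1.72 and 1.48 times. Tyms therefore stood above the other libraries under both scalings, by unequal amounts. Tyms made up 35.4 and 20.4% of the summed CPM of the 32 genes in replicates 4 and 5 of Eln-/- and 35.6% in replicate 1 of Eln+/+, and between 3.22 and 8.32% elsewhere. The MCM subunits made up 2.63, 7.73 and 2.90% in the same 3 libraries and between 19.9 and 32.4% elsewhere.

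Fork protection and repair genes ranged from abundant to nearly absent. Tipin, which holds the fork together as the partner of Timeless, had 71.4, 71.5, 61.1, 43.5 and 126 CPM in Eln-/- and 36.8, 67.8, 97.8, 77.8 and 80.2 CPM in Eln+/+ libraries. Ung, a glycosylase that removes uracil from DNA, had 34.4, 64.1, 58.7, 46.0 and 60.1 CPM in Eln-/- and 0.463, 28.9, 53.6, 38.4 and 32.6 CPM in Eln+/+ libraries. In Ung the lowest Eln-/- library exceeded 3 of the Eln+/+ libraries, and the ranges overlapped. Clspn, the mediator of the replication checkpoint, had 12.6, 2.50, 1.83, 0.0726 and 4.03 CPM in Eln-/- and 18.1, 9.85, 0, 0.808 and 0.0223 CPM in Eln+/+ libraries, with its highest value in the gene-poor Eln+/+ library. Blm, a RecQ helicase, was between 2.79 and 21.8 CPM in Eln-/- and between 0.265 and 21.7 CPM in Eln+/+ libraries. Rad51ap1, a gene of recombinational DNA repair, was between 1.47 and 22.1 CPM in Eln-/- and between 1.79 and 14.8 CPM in Eln+/+ libraries.

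Of the chromatin genes, Slbp, which binds the stem-loop of histone mRNA, was the steadiest of all 32 with TMM, with a coefficient of variation over the 10 libraries of 19.7%. It had 204, 176, 184, 136 and 132 CPM in Eln-/- and 172, 172, 256, 184 and 162 CPM in Eln+/+ libraries. On library totals Slbp had 66.1 and 112 CPM in Eln-/- replicates 4 and 5 and 96.7 CPM in Eln+/+ replicate 1. Elsewhere it then had 183 to 294 CPM, while Pcna ran from 108 to 214 CPM over the 10 libraries. Chaf1b, a subunit of the histone chaperone CAF-1, lay between 27.4 and 43.7 CPM in the 7 other libraries (coefficient of variation 14.9%), but had 0.145 and 16.7 CPM in Eln-/- replicates 4 and 5 and 0 in Eln+/+ replicate 1. Uhrf1, which brings the maintenance DNA methyltransferase to replicated DNA, had 60.2, 61.8, 39.6, 0 and 8.14 CPM in Eln-/- and 11.9, 48.1, 32.9, 56.6 and 21 CPM in Eln+/+ libraries. Hells, a chromatin remodeller, was between 5.69 and 41.9 CPM in Eln-/- and between 17.6 and 57.0 CPM in Eln+/+ libraries. Among the cell cycle genes, Ccne2, the cyclin E2 that drives entry into S phase, had 87.9, 133, 208, 45.1 and 77.9 CPM in Eln-/- and 9.32, 95.1, 240, 182 and 147 CPM in Eln+/+ libraries. Dtl, the receptor of a ubiquitin ligase that clears the licensing factor Cdt1, was between 13.8 and 72.1 CPM in Eln-/- and between 29.6 and 99.8 CPM in Eln+/+ libraries. E2f8, an E2F family repressor, had 13.0, 1.08, 1.64, 0 and 0 CPM in Eln-/- and 0, 4.62, 0.0406, 9.25 and 0 CPM in Eln+/+ libraries, with no count in all 3 gene-poor libraries and in Eln+/+ replicate 5. Wdr76, a WD repeat protein gene, stayed at or below 3.05 CPM in Eln-/- and 6.66 CPM in Eln+/+ libraries.

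Per kb of exon, Rrm2 and Pcna were the most abundant of the 32 genes, at 76.8 ± 18.4 and 73.5 ± 25.2 CPM per kb in Eln-/- and 66.6 ± 23.2 and 66.7 ± 19.0 CPM per kb in Eln+/+ cells (SD, n = 5 each). By the mean over the 10 libraries they were followed by Tipin (39.3 CPM per kb), Tyms (36.9), Ccne2 (35.0), Slbp (29.3), Fen1 (27.7), Mcm6 (26.1), Gins2 (24.8) and Mcm5 (19.0). Mcm4, Mcm3, Rrm1, Mcm7 and Prim1 lay between 17.7 and 12.1 CPM per kb. The next were Uhrf1 (7.99), Ung (7.63), Mcm2 (7.25) and Chaf1b (5.67), and Hells, Dscc1, Cdc45, Cdc6, Dtl and Rad51ap1 ran from 4.34 to 2.52. Pola1, Exo1, Blm, Clspn, Mcm10, E2f8 and Wdr76 closed the order at 1.52 to 0.386 CPM per kb. By complex, the median gene stood at 36.9 CPM per kb in nucleotide supply, where it was Tyms, 17.4 in the MCM helicase, 15.8 in clamp and flap processing, 6.79 in polymerase alpha and primase and 3.69 in loading and activation. Over the 7 other libraries the MCM helicase came first at 23.4 CPM per kb, and nucleotide supply stood at 22.0, clamp and flap processing at 19.6, polymerase alpha and primase at 8.29 and loading and activation at 4.87. That first place depended on the length used. With the longest transcript as the length, the median gene of nucleotide supply over the same 7 libraries was Rrm1, at 37.9 CPM per kb. The middle MCM genes, Mcm7 and Mcm3, were then at 26.8 and 25.7 CPM per kb, so nucleotide supply stood above the MCM helicase. Of the GINS complex, Gins4, which is outside the 32 genes, averaged 43.6 CPM per kb, beside 24.8 for Gins2. Rrm2 and Pcna were at the 92.3 and 92.1 percentile of the genes tested and Wdr76 at the 10.6 percentile. Of the 31 pairs of neighbours in the order, Pcna and Tipin were the pair that differed in the same direction in all 10 libraries, and Rrm1 exceeded Mcm7 in 1 of 5 Eln-/- and 5 of 5 Eln+/+ libraries. The other 29 pairs did not differ in the same direction in all libraries of either genotype. The place of Tyms rested on the gene-poor libraries, since it ranked 4 over all 10 and 12 over the other 7. With the longest transcript as the length, Slbp moved to 60.9 CPM per kb and rank 3, and 9 of the 10 highest genes were shared between the orders.

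**Figure D3:**
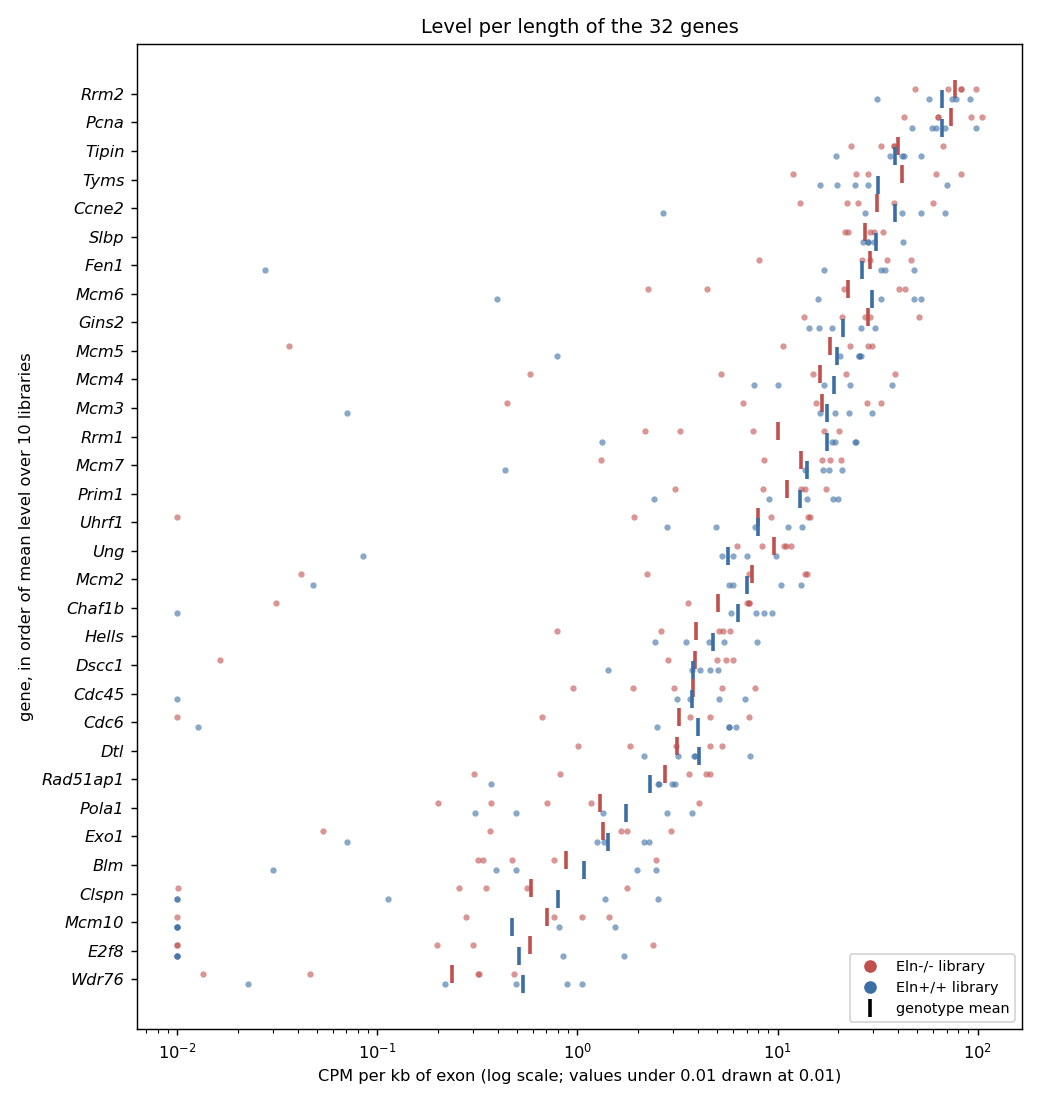
CPM per kb of exon (logarithmic axis; values under 0.01 are drawn at 0.01) of the 32 genes in order of their mean over 10 libraries; dots are single Eln-/- libraries (upper, red) and Eln+/+ libraries (lower, blue) and bars the genotype means (n = 5 each). The means fall from 71.7 for Rrm2 to 0.386 for Wdr76, and the dots of the genotypes overlap in every gene.

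Between genotypes, none of the 32 genes passed the threshold of 0.05 in edgeR's quasi-likelihood test with Benjamini-Hochberg adjustment, against 0% of all 15718 genes tested. Eln itself was not called, with a log2 fold change of -12.2 and an adjusted p of 0.152 in that test, the smallest of all genes. The absence of a call therefore says little about any single gene here. At an unadjusted p under 0.05 there were 0 of the 32 genes with edgeR, against 0.515% of the genes tested, and DESeq2 and limma-voom put 0 of the 32 past either threshold. The Eln-/- and Eln+/+ libraries overlapped in each of the 32 genes, and of all genes tested 0.305% had no overlap. The log2 fold change, Eln-/- over Eln+/+, was above 0 in 13 genes and below 0 in 19, with a median of -0.09, against 0.02 for all genes tested. Fitted values ran from -1.17 (SE 1.19) for Wdr76 to 0.77 (SE 0.79) for Ung. The smallest unadjusted p with edgeR was 0.320, for Rrm1, whose adjusted p was 1.00. Rrm1 averaged 111 ± 90.5 CPM in Eln-/- and 194 ± 105 CPM in Eln+/+ cells (SD, n = 5 each), a log2 fold change of -0.81 (SE 0.78; 95% interval -2.51 to 0.89). Mcm6 averaged 105 ± 90.3 CPM in Eln-/- and 139 ± 101 CPM in Eln+/+ cells (SD, n = 5 each), a log2 fold change of -0.41 (SE 1.01). Mcm2 averaged 51.6 ± 44.5 CPM in Eln-/- and 49.2 ± 34.9 CPM in Eln+/+ cells (SD, n = 5 each), a log2 fold change of 0.07 (SE 1.20). Pcna averaged 177 ± 60.4 CPM in Eln-/- and 160 ± 45.6 CPM in Eln+/+ cells, with a log2 fold change of 0.14 (SE 0.39). None of these differences exceeded the spread between replicates.

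The intervals were wide, so the test leaves room for sizeable differences in most genes. The 95% interval of the log2 fold change held 0 in all 32 genes, stayed within a 2-fold change either way in 3 and reached a 4-fold change in 21, and the median SE was 0.95. Slbp had the narrowest SE, 0.34, with an interval of -0.93 to 0.56, and E2f8 the widest, 2.09, with an interval of -4.39 to 4.74. Without the 3 gene-poor libraries, which leaves 3 Eln-/- and 4 Eln+/+ libraries, the median SE was 0.38, the interval stayed within 2-fold in 10 genes and reached 4-fold in 6, and all 32 intervals still held 0. In those 7 libraries the median of the 32 log2 fold changes was 0.05, against 0.04 for all 17509 genes tested there. None of the 32 genes had genotypes that did not overlap, against 3.84% of the genes tested. Mcm5 then averaged 108 ± 14.3 CPM in Eln-/- and 97.7 ± 10.7 CPM in Eln+/+ cells (SD, n = 3 and 4), a log2 fold change of 0.16 with an interval of -0.31 to 0.64. Chaf1b had -0.12 (interval -0.69 to 0.45), Mcm7 0.11 (interval -0.43 to 0.64) and Rrm1 -0.51 (interval -1.35 to 0.33). The median coefficient of variation of the 32 genes was 64% over the 10 libraries and 31.7% over the 7. The fold changes of E2f8, Pola1 and Clspn rested on single libraries or on the tool. E2f8 was at 0.18 with all libraries and at -2.02 without Eln-/- replicate 1, Pola1 was at -0.42 and at -1.51 without that library, and Clspn was at -0.44 with edgeR and at 1.98 with limma-voom.

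**Figure D4:**
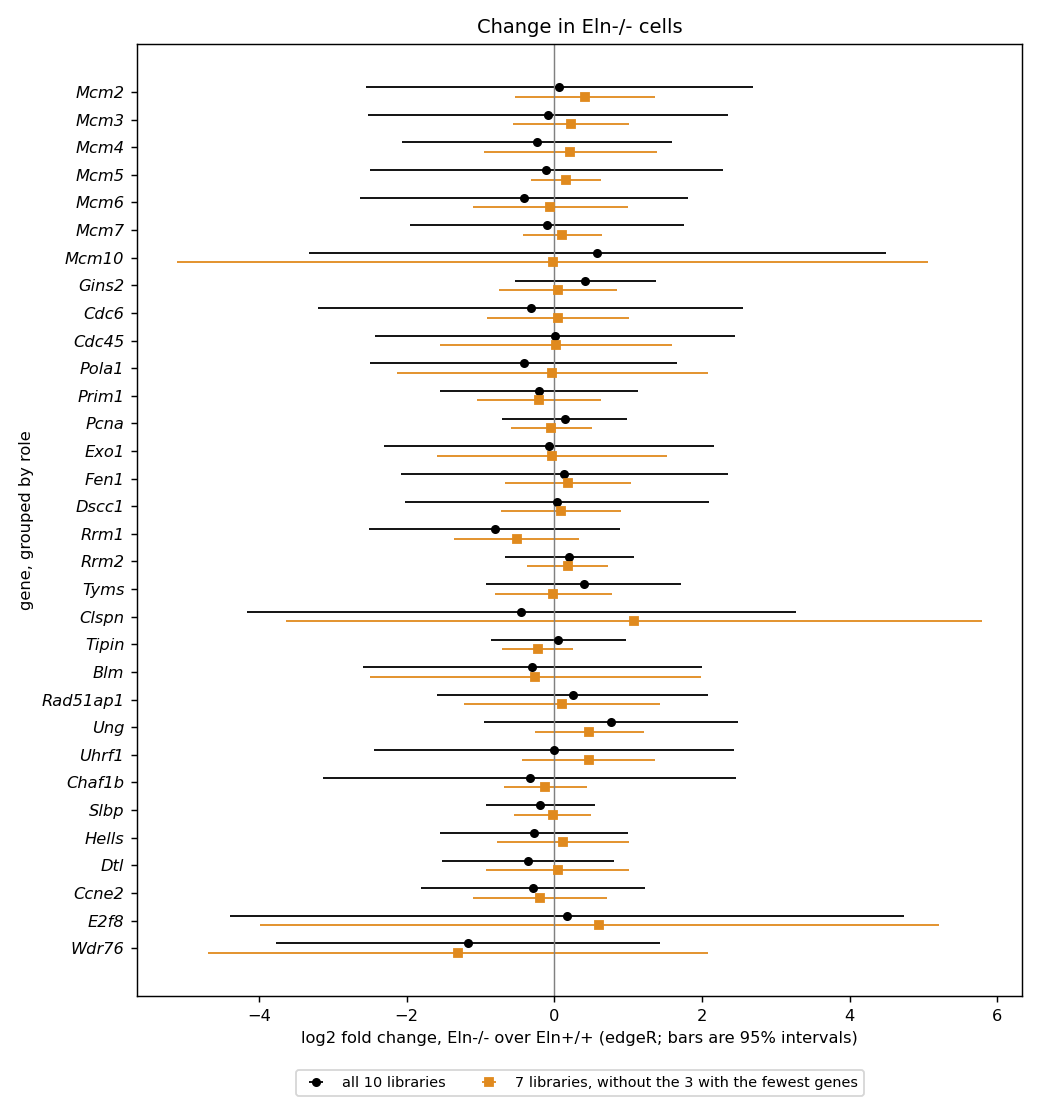
Log2 fold change of each of the 32 genes, Eln-/- over Eln+/+, from edgeR with 95% intervals, for all 10 libraries (black circles) and for the 7 libraries left without the 3 gene-poor ones (orange squares). All intervals hold 0, and the median SE is 0.95 with 10 libraries and 0.38 with 7.

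The gene-poor libraries were set against the others of their genotype as a description only, since they were set apart by their number of detected genes. In Eln-/- cells, the mean of replicates 4 and 5 over the mean of replicates 1 to 3 had a median of 0.448 over the 32 genes, against 0.573 over all genes tested and 0.473 over the genes tested whose mean over the 7 other libraries lay within the range of the 32 genes, 2.56 to 219 CPM. In Eln+/+ cells, replicate 1 over the mean of replicates 2 to 5 had a median of 0.0973 over the 32 genes, against 0.386 and 0.335. A ratio under 0.1 was found in 5 of 32 genes in Eln-/- (15.6%, against 19.3% of genes tested) and in 16 of 32 genes in Eln+/+ cells (50%, against 34.0%). In Eln-/- cells that share of the 32 genes was near the share of all genes tested. For Mcm2 to Mcm7 the median ratio was 0.128 in Eln-/- and 0.0178 in Eln+/+ cells. On library totals the median ratio of the 32 genes was 0.232 in Eln-/- and 0.0448 in Eln+/+ cells, against 0.316 and 0.177 over all genes tested, and that of Mcm2 to Mcm7 was 0.0773 and 0.00813. The ratio was then under 0.1 in 9 of the 32 genes in Eln-/- (28.1%, against 26.6% of genes tested) and in 18 in Eln+/+ cells (56.2%, against 41.7%). Tyms and Pcna were above 1 in both genotypes with TMM, and Tyms alone of the 32 was so on library totals. The genes under 0.1 in both genotypes were 4 of the 32, against 13.2% of genes tested. Across the 32 genes the ratio had a correlation with transcript length of r = -0.28 in Eln-/- and r = -0.01 in Eln+/+ cells, from values that share libraries and with no test. The ribosomal RNA share and the fibroblast marker sum moved with this gap in all 3 libraries, though Dpt within that sum did not. The number of detected genes moved with the gap because the libraries were chosen by it. The erythroid marker sum moved with the gap in Eln-/- replicate 4 and Eln+/+ replicate 1 but not in Eln-/- replicate 5. Their part in the gap was not tested.

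**Figure D5:**
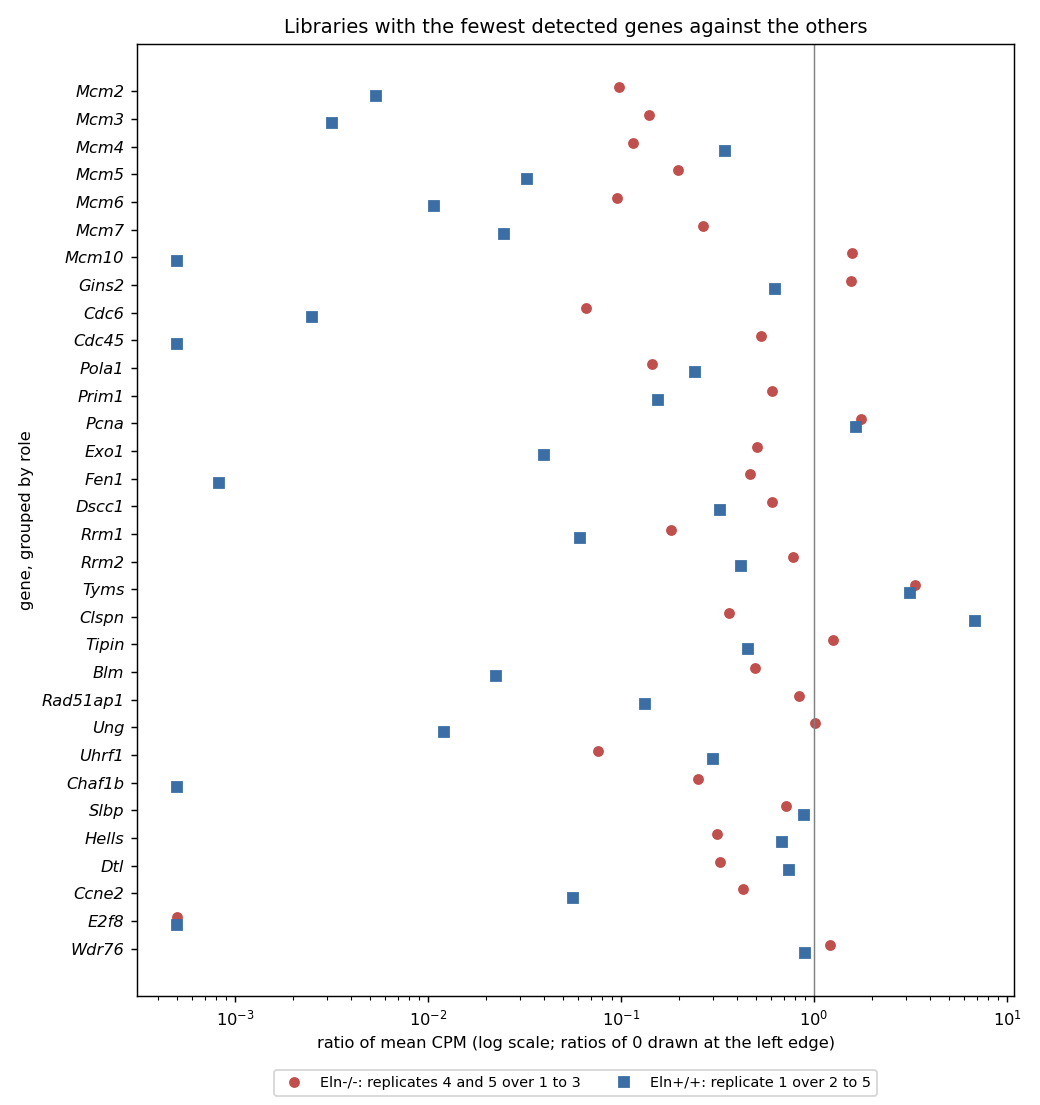
For each of the 32 genes, the mean CPM of the gene-poor libraries over the mean CPM of the other libraries of the same genotype (logarithmic axis; ratios of 0 drawn at the left edge), for Eln-/- (red circles, replicates 4 and 5 over 1 to 3) and Eln+/+ (blue squares, replicate 1 over 2 to 5). Most genes lie left of 1, with medians of 0.448 and 0.0973, while Tyms lies at 3.33 and 3.15.

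Other genes of the pathway were read from the same fit in 6 further lists, and 0 of their members passed the threshold with edgeR in either direction. Of the licensing and initiation genes, 17 of 18 were tested, with a median log2 fold change of -0.01. Orc6, of the origin recognition complex, averaged 104 ± 41.6 CPM in Eln-/- and 105 ± 44.3 CPM in Eln+/+ cells (SD, n = 5 each), and Gins4, of the GINS complex, 58.7 ± 36.1 and 58.9 ± 28.7 CPM. Wdhd1, a polymerase alpha adaptor, had a log2 fold change of -0.86 (SE 0.97) and Topbp1, which activates the helicase and the checkpoint, 0.74 (SE 0.83). The 21 polymerase, clamp and lagging strand genes were all tested and had a median of -0.06. Rpa3, a subunit of the single-strand binding protein, had 29.2, 46.5, 75.2, 816 and 180 CPM in Eln-/- and 650, 35.6, 83.0, 78.1 and 96.4 CPM in Eln+/+ libraries, so like Tyms it stood high in the gene-poor libraries. Pole4, a small subunit of polymerase epsilon, did so too, with 248 and 303 CPM in the 2 of Eln-/- and 266 CPM in that of Eln+/+, and 53.7 to 130 CPM elsewhere. On library totals Pole4 was at 120, 256 and 149 CPM in those 3 libraries and at 69.6 to 147 CPM elsewhere, so replicate 4 of Eln-/- no longer stood apart. Pole, its catalytic subunit, had a log2 fold change of 1.63 (SE 1.49) and the nuclease Dna2 1.41 (SE 1.49). The 10 nucleotide supply genes had a median of -0.07. Nme1, a nucleoside diphosphate kinase, had 1017, 537 and 881 CPM in the same 3 libraries and 88.3 to 266 CPM elsewhere. Dut, which breaks down dUTP, had 348, 214 and 221 CPM there and 51.3 to 109 CPM elsewhere. On library totals Nme1 was at 454 CPM or more in the 3 libraries and at 306 CPM or less elsewhere, whereas Dut in Eln+/+ replicate 1, at 124 CPM, was level with replicate 5, at 123 CPM. Tk1, thymidine kinase, averaged 123 ± 57.6 CPM in Eln-/- and 86.6 ± 15.7 CPM in Eln+/+ cells (SD, n = 5 each), a log2 fold change of 0.51 (SE 0.40), and Rrm2b, a ribonucleotide reductase subunit used outside S phase, had -1.34 (SE 1.18).

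The median log2 fold change of the 7 chromatin assembly genes was 0.03. Rbbp4 and Rbbp7, histone-binding subunits of several chromatin complexes, had 0.00 (SE 0.41) and -0.52 (SE 0.68), and the histone chaperone Asf1a 0.49 (SE 0.49). The 27 G1/S regulators had a median of 0.14. Cdkn1c, a CDK inhibitor, was the most abundant of them per kb, with 1318 ± 813 CPM in Eln-/- and 1640 ± 1623 CPM in Eln+/+ cells (SD, n = 5 each). Cdk4, the kinase of the D cyclins, had 755 ± 339 CPM in Eln-/- and 660 ± 143 CPM in Eln+/+ cells, and E2f4 and E2f3, of the E2F family, had log2 fold changes of 2.00 (SE 1.31) and 0.85 (SE 0.87). The 16 genes of G2 and mitosis had a median of 0.07. Birc5, a subunit of the chromosomal passenger complex, had 229 ± 127 CPM in Eln-/- and 173 ± 110 CPM in Eln+/+ cells, and Cdk1, the mitotic kinase, 237 ± 136 and 142 ± 60.2 CPM (SD, n = 5 each). Cenpa, the centromeric histone, had a log2 fold change of 0.82 (SE 0.65). With TMM, Birc5, Cdk1 and Cenpa all stood highest in the gene-poor libraries, where Cenpa had 869, 543 and 437 CPM, against 93.1 to 228 CPM elsewhere. Without those libraries the log2 fold changes were 0.22, 0.36 and 0.05. On library totals Birc5 in Eln-/- replicate 4 and Eln+/+ replicate 1, at 202 and 206 CPM, was below Eln-/- replicate 2, at 227 CPM. Cdk1 in Eln-/- replicate 4, at 214 CPM, was then below Eln-/- replicate 3, at 225 CPM. In Eln+/+ replicate 1 Cdk1 was at 135 CPM, below Eln+/+ replicate 4, at 181 CPM. Cenpa in Eln+/+ replicate 1, at 245 CPM, was below Eln+/+ replicate 5, at 258 CPM. It stayed highest in Eln-/- replicates 4 and 5, at 422 and 459 CPM. The medians of the 6 lists lay between -0.07 and 0.14, and that of all genes tested was 0.02.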

How the data were processed

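Bulk mRNA sequencing of 10 libraries was deposited as 1 table of estimated counts per gene. The submitters' processing notes name STAR, DESeq2 and mm10, without versions. For the counter, annotation and strand setting, nothing is given in the sources used here. The authors deposited estimated counts without scaling; 23.5% to 48.8% of a library's values were not whole (tolerance 1e-06), so they were rounded. Spans equalled those of GENCODE mouse release 21 for 27046 of 28165 genes and all 32 described.

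Genes kept by filterByExpr (15718) were scaled with TMM and tested with edgeR's quasi-likelihood test on genotype alone, two-sided, with Benjamini-Hochberg adjustment at 0.05. SE is the log2 fold change over the root of F; 95% intervals use it with the test's degrees of freedom. CPM divides rounded counts by the TMM-scaled library total. The biological coefficient of variation was 1.16. Exons of Mcm7, Gins2, Cdc45, Slbp, Ccne2, E2f8, Fen1 and Dscc1 overlap other genes'. A promoter counted if any listed start matched. The edgeR fit was also run on simulated counts with planted changes, and the recovery is not reported here. The 32 genes and all lists were chosen with earlier results of these data known. Other lists name the 2 members highest per kb and the 2 smallest in p. Markers, whose rule names the 2 most abundant per list, are given as sums, with Acta2 and Dpt named. Alternatives were 18 planned and 3 added after seeing the data. Tools were edgeR 4.0.16, DESeq2 1.42.0 and limma 3.58.1 in R 4.3.3.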

Additional observations from a re-analysis of the deposited data

Results flagged for a closer look

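Among 64 sets of 5 libraries, 8 had a library set apart from the other 4 by Dixon's criterion at 95%. Chance alone marks about 0.05 of independent sets at that level. The sets here share the same libraries, so 8 of 64 cannot be compared with that rate. In Eln-/- cells, replicate 1 was highest for Pola1 at 35.8 CPM (others 1.77 to 10.3), E2f8 at 13.0 CPM (others 0 to 1.64) and Blm at 21.8 CPM (others 2.79 to 6.68). In Eln+/+ cells, replicate 1 was lowest for Mcm5 at 3.17 CPM (others 81.8 to 105), Rrm1 at 14.7 CPM (others 206 to 270) and Rad51ap1 at 1.79 CPM (others 12.2 to 14.8), and highest for Tyms at 427 CPM (others 98.7 to 173). Eln+/+ replicate 3 was highest for Slbp at 256 CPM (others 162 to 184).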

How the results depend on the processing

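The 32 genes gave 0 calls under all 21 alternatives, and their smallest adjusted p was 0.825, with limma-voom and sample quality weights. The median of their log2 fold changes, -0.09 as reported, ran from -0.33 to 0.11 and so changed sign; it was -0.33 without Eln+/+ replicate 1, 0.11 without Eln+/+ replicate 2 and 0.05 without the 3 gene-poor libraries. With replicate number as a block, edgeR made 0 calls among all genes, found 71 at an unadjusted p under 0.05, and gave the 32 genes a median of -0.20. Same-numbered libraries correlated above 0.1 in 2 of 5 pairs, from -0.56 for number 1 to 0.51 for number 2. The uneven libraries enter these correlations too, so they cannot show whether the numbers pair the libraries. The main fit used no block. Over all genes, 0 passed as reported, against 6 with DESeq2, 2 with limma-voom, 7 with limma-voom and sample quality weights, 1 without Eln-/- replicate 1 and Eln+/+ replicate 2, and 0 to 1 with each replicate left out in turn. An unadjusted p under 0.05 was found for 81 genes, against 2134 without the filter, 196 with DESeq2, 268 with limma-voom, 1023 with weights, 271 without the 3 libraries (514 with limma-voom) and 57 to 353 with each replicate left out. Of 671 fold changes of the 32 genes under alternatives, 664 stayed within 1 SE of the reported value. The sign differed in 120 of the 671, in 4 of them by more than 1 SE, and 3 others moved by more than 1 SE. Clspn changed sign by more than 1 SE, to 1.98 (limma-voom), 2.33 (with weights) and 3.92 (limma-voom without the 3 libraries), and E2f8 ran from -2.02 to 1.43 with each replicate left out; the cause was not tested. The order per kb had a rank correlation of 0.9751 with that by longest transcript. In 14 of the 32 genes at least 1 library had 4 counts or fewer, which limits their fold changes.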
